A study of Mus musculus with 12 samples.

Results

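The genes described here encode the machinery that copies nuclear DNA: 48 mouse genes, found by gene symbol in the annotation of the array among 19057 genes with a probe. They cover 9 roles, from origin licensing through the replicative helicase, polymerases, sliding clamp, single-strand binding protein and Okazaki fragment maturation to nucleotide supply and chromatin assembly. Of the 48, 47 were read by a probe that passed the detection filter and were tested among 10873 genes. Pola1, the catalytic subunit of polymerase alpha, has 1 probe, which was not detected on any array. Transcripts of the genes were measured in mouse embryonic fibroblasts (MEFs), connective tissue cells grown from embryos, labelled TAp73+/+ or TAp73-/-. TAp73 names the isoforms of the transcription factor p73 (gene Trp73) that carry its transactivation domain. Cells of each genotype were untreated, grown at 21% oxygen, or were held at 1% oxygen for 4 or 8 h, all in DMEM with serum, and each of the 6 groups has 2 Illumina bead arrays. How the deletion was made, and how many embryos or lines stand behind each genotype, is not given in the sources used here, so a difference between the genotypes may also be one between cell lines.

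Replication starts where the origin recognition complex (ORC), Cdc6 and Cdt1 load the MCM helicase on DNA in G1, a step called licensing. Geminin blocks Cdt1 once S phase has begun, so that each origin fires once per cycle, and Cdc45 and GINS then join MCM to form the active CMG helicase. Many of these genes are transcribed in late G1 and S phase under E2F transcription factors, and severe lack of oxygen is known to slow replication in cultured cells. In bulk RNA, fewer cells in S phase and less transcript per S-phase cell cannot be told apart.

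The promoter windows below show the E2F letters in or absent from members that the results turn on. RefSeq windows of assembly GRCm38.p6, from 250 bases before to 50 bases after the annotated start, were given for 40 of the 48 members. The letters searched were TTTGGCGC, TTTGCCGC, TTTCGCGC and TTTCCCGC on both strands, with overlapping matches each counted. At least 1 match lay in the windows of 15 of the 40 members (37.5%), against 704 of 27025 genes with a window (2.6%). Capitals mark the matches. Cdt1 (chr8:122567765-122568064, plus strand) holds 1 match. Mcm3 (chr1:20820263-20820562, minus strand) holds 2, of which TTTCCCGC lies on the strand opposite to the gene. Cdc6 (chr11:98907901-98908200, plus strand) holds 1 on the opposite strand. Cdc45 (chr16:18811923-18812222, minus strand) and Chaf1a (chr17:56040166-56040465, plus strand) hold none of these exact letters.
Cdt1: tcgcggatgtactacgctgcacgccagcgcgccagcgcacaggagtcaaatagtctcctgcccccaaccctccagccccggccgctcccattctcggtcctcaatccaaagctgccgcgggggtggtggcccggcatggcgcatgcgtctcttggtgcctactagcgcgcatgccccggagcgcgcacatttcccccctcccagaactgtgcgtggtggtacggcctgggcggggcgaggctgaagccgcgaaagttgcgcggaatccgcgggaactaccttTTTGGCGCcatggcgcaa
Mcm3: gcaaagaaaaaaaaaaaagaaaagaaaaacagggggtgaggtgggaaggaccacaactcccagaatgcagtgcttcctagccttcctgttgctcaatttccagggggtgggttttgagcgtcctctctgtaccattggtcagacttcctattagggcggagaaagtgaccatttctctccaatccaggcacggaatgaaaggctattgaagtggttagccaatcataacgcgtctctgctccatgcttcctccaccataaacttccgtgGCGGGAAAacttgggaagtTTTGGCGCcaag
Cdc6: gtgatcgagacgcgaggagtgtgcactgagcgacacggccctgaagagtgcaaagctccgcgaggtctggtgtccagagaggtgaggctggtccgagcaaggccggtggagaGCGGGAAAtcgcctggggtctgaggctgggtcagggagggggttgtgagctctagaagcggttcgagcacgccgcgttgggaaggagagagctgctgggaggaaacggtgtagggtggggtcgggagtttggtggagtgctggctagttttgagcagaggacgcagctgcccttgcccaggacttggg
Cdc45: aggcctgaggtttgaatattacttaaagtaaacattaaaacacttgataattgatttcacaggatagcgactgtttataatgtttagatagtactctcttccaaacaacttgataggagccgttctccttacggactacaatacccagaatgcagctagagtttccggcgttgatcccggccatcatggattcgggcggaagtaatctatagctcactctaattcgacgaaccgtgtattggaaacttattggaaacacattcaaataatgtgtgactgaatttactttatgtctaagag
Chaf1a: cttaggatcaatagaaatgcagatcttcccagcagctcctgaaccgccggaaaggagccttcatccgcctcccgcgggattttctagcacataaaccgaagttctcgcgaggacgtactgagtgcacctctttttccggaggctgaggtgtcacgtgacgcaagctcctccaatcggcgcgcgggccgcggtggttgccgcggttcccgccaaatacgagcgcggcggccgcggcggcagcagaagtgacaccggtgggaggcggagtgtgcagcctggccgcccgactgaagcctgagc
Among the tested members, 14 have a match and 25 a window without one. At 8 h of hypoxia the median log2 difference was 0.14 with a match and 0.08 without in TAp73+/+ cells, and 0.14 and 0.04 in TAp73-/- cells. At 4 h these medians were -0.04 and -0.06, and 0.07 and 0.01. At 8 h in TAp73+/+ cells 4 of the 14 were called (3 higher and 1 lower) and 7 of the 25 (6 and 1), and in TAp73-/- cells 1 of the 14 (higher) and 5 of the 25 (2 higher and 3 lower). Of all genes, 23.9% were called at 8 h in TAp73+/+ cells (11.6% higher and 12.3% lower) and 20.9% in TAp73-/- cells (10.6% higher and 10.2% lower). With counts this small, no difference between members with and without a match is read from them. A match is a string of letters, not a shown binding site. Only the exact letters were searched, so a window without a match is not shown to lack an E2F site.

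Detection was reached by 42.8% to 44.5% of the 45281 probes on each array. The 1 probe for Trp73 was detected on none of the 6 arrays labelled TAp73+/+ and on 5 of the 6 labelled TAp73-/-, at log2 signals of 4.41 to 4.86 and 4.75 to 6.49. Where this probe lies relative to the deleted part is not given, and p73 isoforms that lack the transactivation domain are made from another promoter of the gene, so the probe does not check the labels. Genotype names below are those of the labels. Of 10 fibroblast markers, Vim, Pdgfra, Thy1 and Fn1 were detected on all 12 arrays, while Col1a1, Col1a2 and Fap were detected on none. Of 6 epithelial markers, Cdh1 and Krt18 were detected on all 12 arrays and Epcam, Krt5 and Krt14 on none. The 3 epithelial markers that could be tested were called higher in TAp73-/- cells at each of the 3 times, and of 5 tested fibroblast markers 4 were higher and 1 lower untreated and 2 higher and 0 lower at 4 h and at 8 h. Under hypoxia in TAp73+/+ cells, 2 of these 5 rose and 2 fell at 4 h and 2 rose at 8 h, and in TAp73-/- cells none was called. Mean levels over each marker list ranged between groups from 6.35 to 6.86 for fibroblast and from 6.57 to 6.92 for epithelial genes (log2 signal). Of 5 endothelial markers, Pecam1 and Tie1 were detected on no array, as were Adgre1 and Ptprc of 4 macrophage and leukocyte markers with a probe. The rest of these 2 lists were detected on some arrays, and 0 on all 12. Of 4 skeletal muscle markers, Des was detected on all 12 arrays and Myod1 and Acta1 on none. The part of these markers in the results was not tested.

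Probes for the same gene did not always move together. A probe score, the first principal component of how the probes of a gene depart from their mean, carried 50.2% of that variance over 4571 genes. The untreated TAp73+/+ arrays scored 0.590 and 0.386, above the other 10, which scored -0.365 to 0.302. Scores in TAp73+/+ cells were -0.0760 and -0.104 after 4 h and 0.193 and 0.302 after 8 h of hypoxia, and those in TAp73-/- cells, in order of time, were -0.101 and -0.133, -0.363 and -0.365, and -0.236 and -0.0934. The score thus moves with time and genotype, and each comparison was also fitted with it as a covariate. Because the score differs between the groups compared, that fit can take up part of the difference itself. A lost call or turned sign in it is given as a description and does not show a reversal.

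Hypoxia moved a minority of the replication genes, up and down. A gene was called at an adjusted p below 0.05 in limma over all 10873 genes, and differences are log2 differences of normalised signal with the standard error (SE) of the fit. In TAp73+/+ cells at 4 h, 5 members rose and 6 fell of 47 (23.4%), against 28% of all genes called (12% higher and 16% lower), and the members' median difference of -0.06 equalled that of all genes. At 8 h, 9 rose and 2 fell (23.4%, against 23.9% of all genes, 11.6% higher and 12.3% lower), with a median of 0.10 beside -0.02 for all genes. Of the same members, 1 rose and 1 fell at 4 h in TAp73-/- cells (4.26%, against 6.96%, 3.13% higher and 3.84% lower), with a median of 0.01 beside -0.03. At 8 h, 3 rose and 3 fell (12.8%, against 20.9%, 10.6% higher and 10.2% lower), with a median of 0.10 beside 0.00. In each of these comparisons the share of members called was below or near that of all genes.

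**Figure D1:**
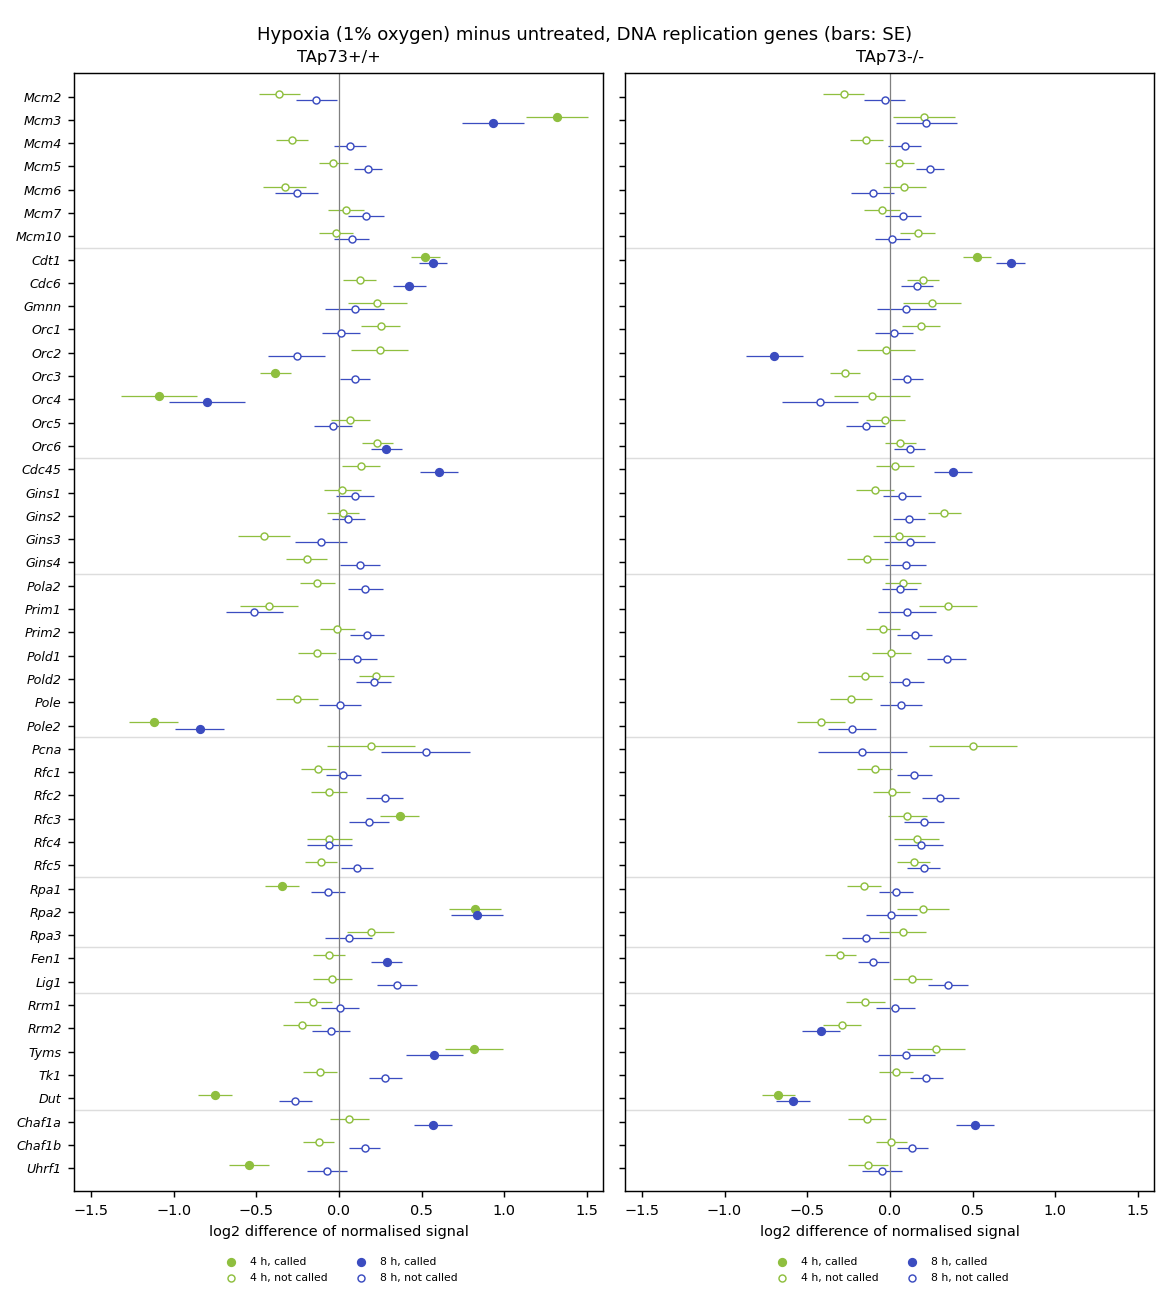
Log2 difference of normalised signal between hypoxia and untreated cells (x axis) for each of the 47 tested genes (y axis, grouped by role), in TAp73+/+ (left) and TAp73-/- cells (right). Points are estimates at 4 h (green) and 8 h (blue), bars are SE, and filled points passed the test; most points lie within 0.5 of 0, and Cdt1 is filled at both times in both genotypes.

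Most members stayed close to their untreated level. The 95% interval of the difference lay within 0.5 of 0 for 26 and 31 of 47 members at 4 and 8 h in TAp73+/+ cells and for 32 and 34 in TAp73-/- cells. These are 55.3%, 66%, 68.1% and 72.3% of members, beside 44.5%, 45.9%, 57.7% and 47.7% of all genes. Called in none of the 4 comparisons were 29 members (61.7%, against 53.8% of all genes). Median centring in place of quantile normalisation shifted the median of all genes at 8 h to -0.15 in TAp73+/+ and -0.18 in TAp73-/- cells. It turned the members' medians to -0.07 and -0.11, still above those of all genes, and the calls to 5 higher and 5 lower in TAp73+/+ and 1 higher and 4 lower in TAp73-/- cells. With the probe score as a covariate, 0 members were called at 4 h in either genotype, 2 at 8 h in TAp73+/+ (Cdt1 and Chaf1a, both higher) and 5 in TAp73-/- cells (Cdt1 and Chaf1a higher, Orc2, Rrm2 and Dut lower). Over all genes 0.147% and 7.09% were then called at 4 and 8 h in TAp73+/+ cells and 0.773% and 21.4% in TAp73-/- cells, and the median SE of 0.127 became 0.372, 0.188, 0.192 and 0.122 in the same order. Leaving out single arrays changed the counts. In TAp73+/+ cells 6 members were called at 4 h without array 2 of the 4 h group, and 6 at 8 h without either 8 h array. For TAp73-/- cells 1 was called at 4 h without untreated array 1, and 2 to 3 at 8 h without an untreated or an 8 h array. Kept without each single array were 6 calls at 4 h (Cdt1, Dut, Mcm3, Pole2, Rpa2 and Tyms) and 4 at 8 h (Cdc45, Cdt1, Pole2 and Rpa2) in TAp73+/+ cells. The calls kept in TAp73-/- cells were Dut at 4 h and Cdt1 and Dut at 8 h.

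The sole rise called in all 4 comparisons with untreated cells was that of a licensing gene. Cdt1, the MCM loading factor, read 11.26 and 11.31 in untreated TAp73+/+ cells, 11.80 and 11.82 after 4 h and 11.87 and 11.84 after 8 h. TAp73-/- cells gave 11.42 and 11.49, then 12.01 and 11.96, then 12.18 and 12.20 (all log2 signal). Every hypoxic array lay above both untreated arrays of its genotype. The rise was 0.52 ± 0.09 (SE, adjusted p = 0.0018) at 4 h and 0.57 ± 0.09 (adjusted p = 0.00127) at 8 h in TAp73+/+ cells. It was 0.53 ± 0.09 (adjusted p = 0.00585) and, at 8 h, 0.73 ± 0.09 (adjusted p = 0.000302) in TAp73-/- cells, the last being 1.66-fold. The 8 h calls were kept in all 21 alternative settings, while those at 4 h were lost with the covariate and, in TAp73-/- cells, without untreated array 1 (highest adjusted p = 0.0507 over settings other than the covariate). Cdt1 has 1 probe past the filter.

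Other licensing genes were called against untreated cells in a single genotype each, and none of them for a difference in response. Cdc6, the ATPase that recruits Cdt1 and MCM to ORC, rose at 8 h in TAp73+/+ cells, from 10.39 and 10.52 to 10.93 and 10.84 (0.43 ± 0.10, adjusted p = 0.0103). The call was lost with median centring, with the mean of its 3 probes, with the covariate and without 8 h array 1. Gmnn, which encodes geminin, was called in none of the hypoxia comparisons, at 0.10 to 0.25. Orc4 fell in TAp73+/+ cells from 7.24 and 7.09 to 6.39 and 5.76 at 4 h and 6.39 and 6.35 at 8 h (-1.09 ± 0.23, adjusted p = 0.00597, and -0.80 ± 0.23, adjusted p = 0.0288). The 8 h call of Orc4 was lost without any 1 of the 4 arrays compared, and the 4 h call without 4 h array 2. Both were lost with the covariate and kept with the mean of the probes. Of the dimmer Orc4 probes in TAp73+/+ cells, 1 also fell (-0.50 at 4 h and -0.80 at 8 h). The other did not (0.28 and 0.06). Orc4 differed by -0.11 ± 0.23 and -0.42 ± 0.23 in TAp73-/- cells and was not called. With the mean of the probes it was called lower there at 8 h.

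Orc3 dipped at 4 h. It read 7.58 and 7.55 untreated, 7.20 and 7.17 after 4 h and 7.70 and 7.63 after 8 h in TAp73+/+ cells, and 7.53 and 7.37, 7.15 and 7.20, and 7.56 and 7.55 in TAp73-/- cells. Both 4 h arrays lay below the other 4 of their genotype. The fall at 4 h was called in TAp73+/+ cells (-0.38 ± 0.09, adjusted p = 0.0113) and not in TAp73-/- cells (-0.27 ± 0.09, adjusted p = 0.103). The 8 h level exceeded the 4 h level in both, by 0.48 ± 0.09 (adjusted p = 0.00828) and 0.38 ± 0.09 (adjusted p = 0.0273). All these Orc3 calls were lost when either array of the 4 h group concerned was left out.

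Orc2 was close to background and passed the detection filter through the groups in which it read high. It was detected on 8 of 12 arrays, on neither TAp73+/+ array at 8 h and on 1 of the 2 TAp73-/- arrays at 8 h. In TAp73-/- cells it read 5.88 and 5.87 untreated, 5.76 and 5.94 after 4 h and 4.94 and 5.40 after 8 h. The fall was called at 8 h (adjusted p = 0.0159), and its size is not exact, since 1 of the 2 arrays was not above background. The call was lost without either untreated array or without 8 h array 1. Orc6 rose by 0.29 ± 0.09 in TAp73+/+ cells after 8 h (adjusted p = 0.0466), from 12.13 and 12.22 to 12.41 and 12.52, a call lost without most single arrays. Orc1 and Orc5 were not called in any hypoxia comparison.

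Among the helicase genes, Mcm3 and Cdc45 were called. Mcm3, an MCM subunit, read 8.64 and 9.23 in untreated TAp73+/+ cells, 10.30 and 10.20 after 4 h and 9.99 and 9.73 after 8 h. The rise was 1.32 ± 0.19 after 4 h (adjusted p = 0.000769) and 0.93 ± 0.19 after 8 h (adjusted p = 0.00555), the latter lost without 8 h array 1. The 6 TAp73-/- arrays read 9.70 to 10.08, and the gene was not called (0.21 ± 0.19 and 0.22 ± 0.19). With the probe score as a covariate the 4 h value in TAp73+/+ cells was -0.098, of the opposite sign and not called. Mcm2, Mcm4, Mcm5, Mcm6 and Mcm7, the partners of Mcm3 in the same ring, and Mcm10, which helps to activate it, were called in none of the hypoxia against untreated comparisons, with differences of -0.36 to 0.24. In the main processing Mcm3 was thus the sole member of the ring to be called, and 1 probe reads it. With the deposited series matrix values or without background correction, Mcm2, Mcm4 and Mcm6 were also called, lower, at 4 h in TAp73+/+ cells. In these settings Mcm5 was called higher at 8 h in TAp73-/- cells. Median centring called Mcm2 lower at 4 and 8 h in TAp73+/+ cells.

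Cdc45, the partner that turns loaded MCM into an active helicase, rose late. In TAp73+/+ cells it read 10.22 and 10.40 untreated, 10.51 and 10.38 after 4 h and 10.89 and 10.94 after 8 h. Its TAp73-/- arrays read 10.33 and 10.33, 10.49 and 10.23, and 10.78 and 10.65. The arrays at 8 h lay above all earlier arrays of the same genotype. The rise at 8 h was 0.60 ± 0.11 (adjusted p = 0.00418) in TAp73+/+ and 0.38 ± 0.11 (adjusted p = 0.0368) in TAp73-/- cells. The call in TAp73-/- cells was lost in 10 of 21 alternatives, among them median centring and the omission of any 1 of the 4 arrays compared. The 4 GINS genes, whose products join Cdc45 and MCM, were called in none of these comparisons and ranged from -0.45 to 0.33.

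Chaf1a followed the same course. It encodes the large subunit of the CAF-1 chaperone, which lays histones on newly copied DNA. It read 10.92 and 10.96, 11.06 and 10.95, and 11.40 and 11.61 in TAp73+/+ cells, and 10.83 and 10.91, 10.84 and 10.62, and 11.29 and 11.47 in TAp73-/- cells. The arrays at 8 h again lay above all others of their genotype. The rise at 8 h was 0.57 ± 0.12 (adjusted p = 0.00606) in TAp73+/+ and 0.51 ± 0.12 (adjusted p = 0.0105) in TAp73-/- cells, and the rise from 4 to 8 h was 0.51 ± 0.12 (adjusted p = 0.0182) and 0.65 ± 0.12 (adjusted p = 0.01). The call at 8 h was lost in TAp73+/+ cells without 8 h array 2, and in TAp73-/- cells with median centring, without untreated array 1 or without 8 h array 2. Chaf1b, the partner subunit, was not called in any comparison (0.16 ± 0.09 and 0.14 ± 0.09 at 8 h). Uhrf1, which binds hemimethylated DNA and recruits the maintenance methyltransferase, fell at 4 h in TAp73+/+ cells from 13.23 and 12.97 to 12.58 and 12.54 (-0.54 ± 0.12, adjusted p = 0.00812) and read 12.96 and 13.11 at 8 h. That call was lost without untreated array 1 or 4 h array 2 and with the mean of its 2 probes. The dimmer Uhrf1 probe read 4.39 and 4.37 untreated and 4.75 and 4.95 at 4 h. With the covariate the value was 0.12, not called.

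**Figure D2:**
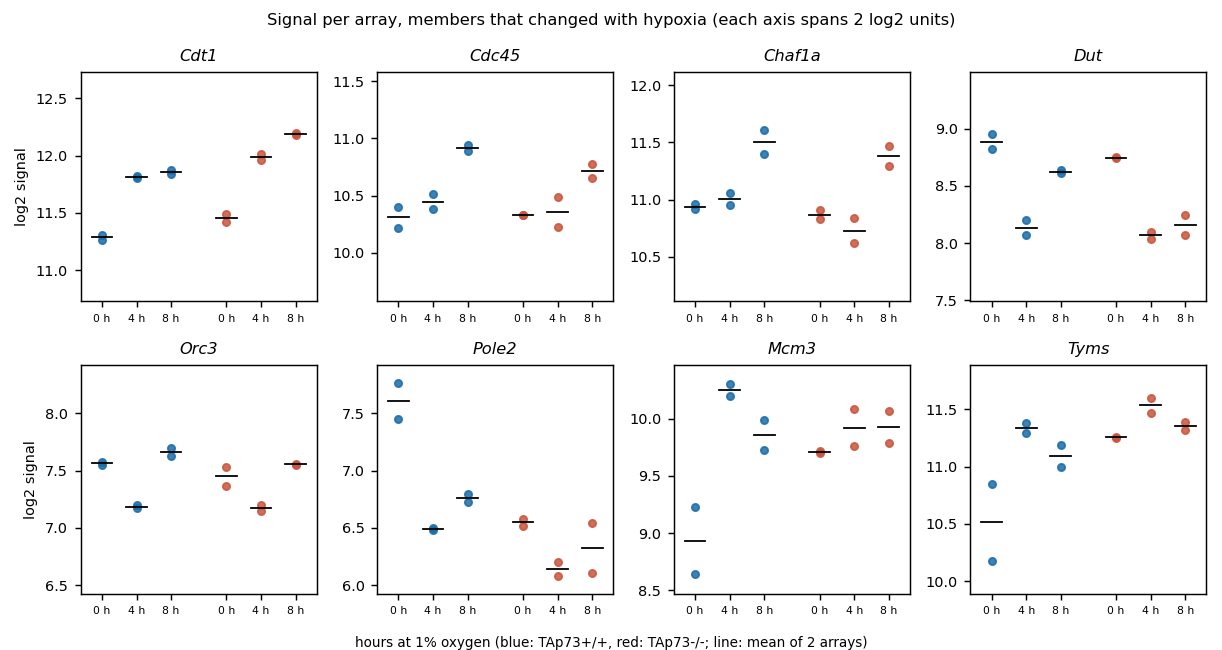
Normalised log2 signal (y axis, 2 units in every panel) on each array by hours at 1% oxygen (x axis) for 8 members, with TAp73+/+ in blue, TAp73-/- in red and the mean of 2 arrays as a line. Cdt1 is above untreated at both times in both genotypes, Cdc45 and Chaf1a at 8 h, Dut is below at 4 h, and the large shifts of Mcm3 and Pole2 start from the untreated TAp73+/+ arrays.

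Of the polymerase genes, only Pole2 was called against untreated cells. Pole2, the second subunit of polymerase epsilon, which copies the leading strand, read 7.45 and 7.77 in untreated TAp73+/+ cells, 6.48 and 6.50 after 4 h and 6.73 and 6.80 after 8 h. The difference was -1.12 ± 0.15 after 4 h (adjusted p = 0.000484) and -0.84 ± 0.15 after 8 h (adjusted p = 0.00262), and both calls were kept without each single array and lost with the covariate. In TAp73-/- cells, which started at 6.52 and 6.58, the differences of -0.42 ± 0.15 and -0.23 ± 0.15 were not called. Pola2, Prim1, Prim2, Pold1, Pold2 and Pole were not called, at -0.51 to 0.35. Of the clamp and its loader, Rfc3 alone was called, at 4 h in TAp73+/+ cells (0.37 ± 0.12, adjusted p = 0.0417, from 7.66 and 7.88 to 8.10 and 8.17), and it lost the call without several single arrays and turned sign with the covariate (-0.27). Pcna, the sliding clamp, varied more between arrays than most members (SE 0.27) and was not called.

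The single-strand binding protein RPA showed opposite calls for its subunits. Rpa2 rose in TAp73+/+ cells from 8.67 and 9.06 to 9.77 and 9.62 at 4 h and 9.81 and 9.60 at 8 h (0.82 ± 0.16, adjusted p = 0.00363, and 0.83 ± 0.16, adjusted p = 0.00392). Rpa1, the large subunit, fell at 4 h from 13.31 and 13.16 to 12.93 and 12.85 (-0.35 ± 0.10, adjusted p = 0.0282), a call lost without untreated array 1 or either 4 h array. Rpa3 was not called. The brightest probe of Rpa2 is not borne out by its other probes: these read 8.34 and 8.05, then 7.24 and 7.33, then 7.60 and 7.77 for one, and 8.41 and 8.83, then 8.23 and 8.52, then 8.24 and 8.52 for the other. The mean over the 3 probes gave -0.11 at 4 h, of the opposite sign.

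Fen1, which trims the flaps of Okazaki fragments, rose by 0.29 ± 0.09 at 8 h in TAp73+/+ cells (adjusted p = 0.0468), from 12.15 and 12.01 to 12.38 and 12.37. The adjusted p was near the threshold, and the call was lost in 12 of 21 alternatives. Fen1 read 12.11 and 12.19 untreated and 12.07 and 12.02 at 8 h in TAp73-/- cells. Lig1, the ligase that seals the fragments, differed by 0.35 ± 0.12 in both genotypes at 8 h and was not called (adjusted p = 0.0555 and 0.0602). With the mean over its 4 probes Lig1 was called at 8 h in TAp73+/+ (0.52 ± 0.11, adjusted p = 0.00663) and in TAp73-/- cells (0.39 ± 0.11, adjusted p = 0.0287).

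Of the nucleotide supply genes, Dut, Tyms and Rrm2 were called. The product of Dut, dUTPase, keeps uracil out of DNA. Dut read 8.82 and 8.95 in untreated TAp73+/+ cells, 8.20 and 8.07 after 4 h and 8.64 and 8.61 after 8 h. The TAp73-/- arrays of Dut read 8.75 and 8.74, 8.04 and 8.10, and 8.07 and 8.25. The hypoxic arrays lay below the untreated ones in each genotype, and in TAp73+/+ cells the 8 h arrays lay between. The fall at 4 h was called in both genotypes (-0.75 ± 0.10, adjusted p = 0.000571, and -0.68 ± 0.10, adjusted p = 0.00309), and at 8 h in TAp73-/- cells (-0.59 ± 0.10, adjusted p = 0.00269) but not in TAp73+/+ cells (-0.26 ± 0.10, adjusted p = 0.08). A dimmer probe for Dut did not fall: it read 6.19 and 6.79, 6.82 and 6.76, and 6.84 and 6.43 in TAp73+/+ cells, and the calls were lost with the mean over both probes.

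Tyms, thymidylate synthase, rose in TAp73+/+ cells from 10.18 and 10.85 to 11.38 and 11.29 at 4 h (0.82 ± 0.17, adjusted p = 0.00643) and 11.19 and 11.00 at 8 h (0.58 ± 0.17, adjusted p = 0.0348). The value at 4 h turned to -0.43 with the covariate and was not called in that fit. The 8 h call was lost without untreated array 1 or either 8 h array. It was also lost with median centring, without the detection filter, with the mean of the probes and with the covariate. Tyms has 5 probes past the filter. A dimmer probe fell at 4 h in TAp73+/+ cells, from 6.39 and 6.07 to 5.61 and 5.58, while the other dimmer probes rose by group mean. The 4 h call was kept with the mean of the probes. Untreated TAp73-/- cells read 11.26 and 11.25 for Tyms, which was not called there. Rrm2, the small subunit of ribonucleotide reductase, fell at 8 h in TAp73-/- cells from 10.79 and 10.80 to 10.36 and 10.39 (-0.42 ± 0.11, adjusted p = 0.0257), a call lost without any 1 of the 4 arrays. Rrm1, its large subunit, and Tk1, thymidine kinase of the salvage route, were called in no hypoxia against untreated comparison.

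Between 4 and 8 h of hypoxia the calls ran upward in TAp73+/+ cells. There 8 members rose and none fell (17%, against 13.8% of all genes, 8.62% higher and 5.22% lower), with a median of 0.21 beside 0.02. The 8 were Chaf1a, Dut, Orc3, Uhrf1, Cdc45, Tk1, Fen1 and Mcm4, at 0.35 to 0.51. Of the members in TAp73-/- cells, Chaf1a and Orc3 rose and Orc2 fell (6.38%, against 10.6%, 6.75% higher and 3.84% lower), with a median of 0.10 beside 0.02. These comparisons share the hypoxic arrays with those against untreated cells. The counts hang on single arrays: they were 0 to 1 in TAp73+/+ cells without any 1 of the 4 arrays compared and, in TAp73-/- cells, 0 without 4 h array 2, 1 without either 8 h array or either TAp73+/+ array at 4 h, and 5 without 4 h array 1. Median centring left 1 call in each genotype.

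The genotypes share no arrays, so their responses can be set side by side. At 4 h Cdt1 was called higher in both, and Dut lower in both (2.37% and 2.52% of all genes, 4.89% in all), and 28 of 47 members had the same sign (59.6%, against 69% of all genes). At 8 h Cdc45, Cdt1 and Chaf1a were called higher in both (5.76% of all genes, with 5.55% lower in both and 11.3% either). At that time 40 of 47 members had the same sign (85.1%, against 72.2%).

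No member was called for a difference between the genotypes in its response to hypoxia. At 4 h and at 8 h limma called 0 of 47, against 0.304% (0.0828% higher and 0.221% lower) and 0.478% (0.212% and 0.267%) of all genes, and 9 and 7 members had an unadjusted p below 0.05 (19.1% and 14.9%, against 16.8% and 14.9% of all genes). The smallest p was that of Mcm3 at 4 h, whose rise was smaller in TAp73-/- cells by a difference of -1.11 ± 0.26 (adjusted p = 0.077, 95% interval -1.70 to -0.53). Mcm3 was called with the deposited series matrix values, without background correction or with an intensity trend, and Mcm3 and Tyms were called without untreated TAp73+/+ array 2. Rpa2 at 8 h (-0.82 ± 0.22, adjusted p = 0.129) and Pole2 at 4 h (0.70 ± 0.21, adjusted p = 0.129) came next. With the probe score as a covariate no member was called at either time. For Cdt1 the difference was 0.00 ± 0.12 at 4 h and 0.16 ± 0.12 at 8 h, and for Dut 0.07 ± 0.14 and -0.32 ± 0.14.

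Between the genotypes a larger share of the members differed, again in both directions. Cells labelled TAp73-/- had 8 members higher and 5 lower than TAp73+/+ cells untreated (27.7%, against 38.4% of all genes, 18% higher and 20.4% lower), 10 higher and 5 lower at 4 h (31.9%, against 36.5%, 18.5% higher and 18% lower) and 7 higher and 11 lower at 8 h (38.3%, against 36.3%, 18.2% each way). The medians were -0.03, 0.00 and -0.05, close to those of all genes at -0.03, -0.03 and -0.01. Gmnn, Cdc6 and Tk1 were higher and Mcm2 and Rrm1 lower at all 3 times, in comparisons that share no arrays (9.58% and 9.03% of all genes were called so, 18.6% in all). Of the 47 members, 32 kept 1 sign at the 3 times (68.1%, against 67.1% of all genes). Median centring moved the split to 4 higher and 7 lower untreated and to 2 higher and 14 lower at 8 h. With the covariate 0, 4 and 0 members were called, and 1.59%, 12.5% and 5.11% of all genes. The median SE over all genes then rose from 0.127 to 0.387, 0.205 and 0.278. The counts fell to 7 untreated without array 1 of either genotype, to 7 or 8 at 4 h without either TAp73+/+ array or TAp73-/- array 2, and to 5 or 8 at 8 h without any 1 of the 4 arrays. Kept without each single array were 5 calls untreated (Cdc6, Gmnn, Pole2, Rfc5 and Tyms), 5 at 4 h (Cdc6, Gmnn, Pcna, Prim1 and Tk1) and 3 at 8 h (Cdc6, Gmnn and Prim1).

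**Figure D3:**
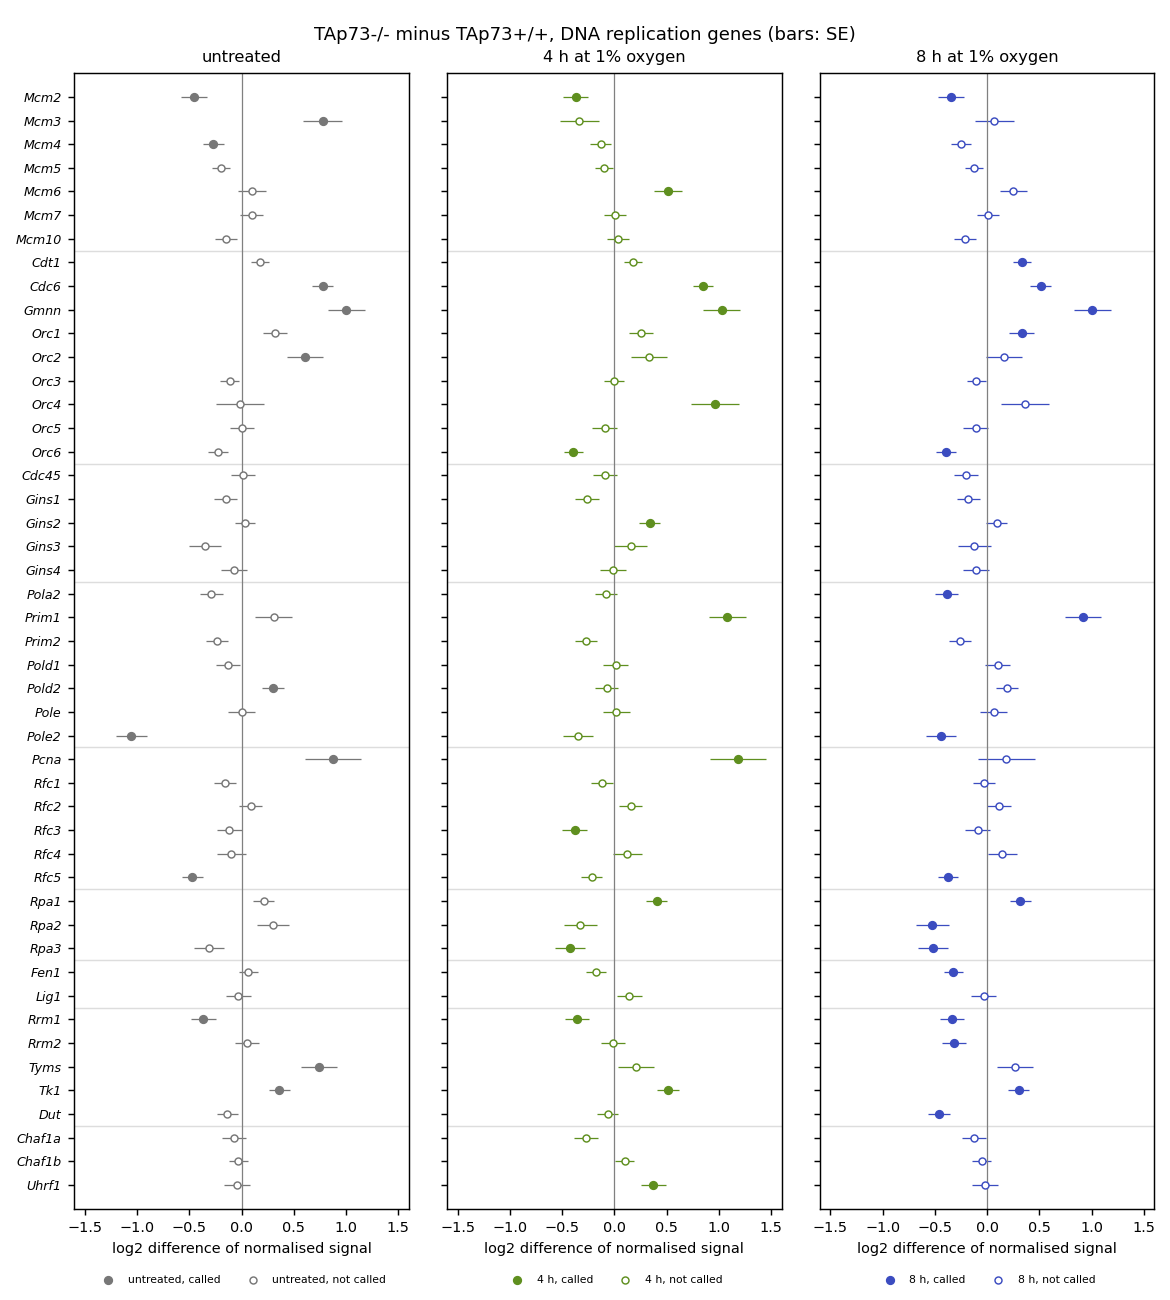
Log2 difference of normalised signal between cells labelled TAp73-/- and TAp73+/+ (x axis) for each of the 47 tested genes (y axis, grouped by role), untreated (left), at 4 h (middle) and at 8 h of hypoxia (right). Points are estimates, bars are SE, and filled points passed the test; Gmnn, Cdc6 and Tk1 are filled on the right of 0 and Mcm2 and Rrm1 on the left in all 3 panels.

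Of the 5 genes called at all 3 times, Gmnn and Cdc6 differed most. Gmnn, the gene of geminin, read 6.08 and 6.47 untreated, 6.66 and 6.35 after 4 h and 6.26 and 6.47 after 8 h in TAp73+/+ cells. The TAp73-/- arrays read 7.51 and 7.04, 7.46 and 7.60, and 7.38 and 7.37. Every TAp73-/- array lay above every TAp73+/+ array. The difference was 1.00 ± 0.18 (adjusted p = 0.00144), 1.03 ± 0.18 (adjusted p = 0.00142) and 1.01 ± 0.18 (adjusted p = 0.00148), or about 2.01-fold, 2.04-fold and 2.01-fold. The calls were kept without each single array and lost with the covariate.

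Cdc6 showed the same order. It read 10.39 and 10.52, 10.52 and 10.63, and 10.93 and 10.84 in TAp73+/+ cells, and 11.25 and 11.21, 11.39 and 11.46, and 11.45 and 11.33 in TAp73-/- cells. Again no arrays of the genotypes overlapped. The difference was 0.77 ± 0.10 untreated (adjusted p = 0.000154), 0.85 ± 0.10 after 4 h (adjusted p = 8.95e-05) and 0.51 ± 0.10 after 8 h (adjusted p = 0.0023). The 4 h call was kept in all 21 alternatives, and the 8 h call was lost with median centring, with the mean of its 3 probes and with the covariate. Cdt1, the target of geminin, was called higher at 8 h (0.33 ± 0.09, adjusted p = 0.0121), a call lost without any 1 of the 4 arrays.

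The ORC genes split. Orc6 was lower in TAp73-/- cells at 4 h (-0.39 ± 0.09, adjusted p = 0.00825) and 8 h (-0.39 ± 0.09, adjusted p = 0.00797), with 11.96 to 12.08 on the 4 TAp73-/- arrays and 12.38 to 12.52 on the 4 TAp73+/+ arrays. Orc4 was higher at 4 h (0.96 ± 0.23, adjusted p = 0.0081), where TAp73+/+ cells read 6.39 and 5.76 and TAp73-/- cells 6.84 and 7.24. Orc2 read 5.88 and 5.87 untreated in TAp73-/- cells and 5.03 and 5.52 in TAp73+/+ cells, where 1 of 2 arrays detected it. It was called (adjusted p = 0.018), but with 1 array not above background the size of that difference is not exact. Orc1 passed narrowly at 8 h (0.33 ± 0.12, adjusted p = 0.0476). Orc4 lost its call without array 2 of either genotype, with the covariate and with the mean of its probes. The dimmer Orc4 probes differed by -0.08 and 0.37 between genotypes at 4 h. Orc6 lost its calls without 4 h array 1 or 8 h array 2 of TAp73+/+ cells.

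The helicase genes were called in both directions. Mcm2 was lower in TAp73-/- cells at all 3 times, by a difference of -0.45 ± 0.12 untreated (adjusted p = 0.0146), -0.37 ± 0.12 after 4 h (adjusted p = 0.037) and -0.35 ± 0.12 after 8 h (adjusted p = 0.0474). It read 11.77 and 11.55, 11.30 and 11.30, and 11.44 and 11.61 in TAp73+/+ cells, and 11.09 and 11.32, 11.04 and 10.82, and 11.15 and 11.21 in TAp73-/- cells. Each of these calls was lost without 1 or more single arrays, and with the covariate the sign turned untreated (0.065) and at 8 h (0.0047). Mcm3 was higher untreated (0.78 ± 0.19, adjusted p = 0.00782), with -0.70 under the covariate, and Mcm6 was higher at 4 h (0.51 ± 0.13, adjusted p = 0.0111). The Mcm6 call was lost with the mean of its probes and with the covariate. It was also lost without 4 h array 1 of TAp73+/+ cells or 4 h array 2 of TAp73-/- cells. Dimmer Mcm6 probes differed by -0.15, 0.002 and 1.41 at 4 h, the last from a probe detected on 9 of 12 arrays. Mcm4 was lower untreated at the threshold (-0.27 ± 0.10, adjusted p = 0.0495). Mcm7 was not called by its brightest probe, which read 10.34 to 10.66 in TAp73+/+ and 10.47 to 10.67 in TAp73-/- cells. The other Mcm7 probe read 10.69 and 10.40, 10.12 and 10.15, and 10.76 and 10.78 in TAp73+/+ cells, against 9.66 and 9.75, 9.55 and 9.46, and 10.15 and 9.44 in TAp73-/- cells, with no overlap at any 1 time. With the mean of both probes Mcm7 was called lower in TAp73-/- cells at all 3 times (-0.37 ± 0.11, adjusted p = 0.0222, then -0.31 ± 0.11, adjusted p = 0.0499, then -0.48 ± 0.11, adjusted p = 0.00692). Mcm5 and Mcm10 were not called at any time, nor were Cdc45, Gins1, Gins3 and Gins4, while Gins2 was higher at 4 h (0.34 ± 0.10, adjusted p = 0.0215). The Gins2 call was lost in 6 of 21 alternatives, among them the mean of its 3 probes.

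Among the polymerase genes, Prim1 and Pole2 stood out. Prim1, the catalytic subunit of primase, read 7.0 and 7.15, 6.58 and 6.72, and 6.79 and 6.33 in TAp73+/+ cells, and 7.62 and 7.14, 7.81 and 7.66, and 7.44 and 7.52 in TAp73-/- cells. The difference of 0.31 ± 0.17 untreated was not called (adjusted p = 0.193), while 1.08 ± 0.17 after 4 h (adjusted p = 0.000929) and 0.92 ± 0.17 after 8 h (adjusted p = 0.0023) were, also without each single array. Pole2 was lower in TAp73-/- cells untreated (-1.05 ± 0.15, adjusted p = 0.000304) and at 8 h (-0.44 ± 0.15, adjusted p = 0.0369). Both genes lost their calls with the covariate. Pola2 was lower at 8 h (-0.39 ± 0.11, adjusted p = 0.0164) and Pold2 higher untreated (0.30 ± 0.11, adjusted p = 0.0464), and Prim2, Pold1 and Pole were not called. The Pola2 call was lost in 4 of 21 alternatives and the Pold2 call in 13.

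Pcna was higher in TAp73-/- cells untreated (0.88 ± 0.27, adjusted p = 0.0246) and at 4 h (1.19 ± 0.27, adjusted p = 0.00635), with 8.64 and 8.82 against 9.87 and 9.34, and 8.86 and 8.99 against 9.60 and 10.61. Its SE was the largest of the 47 members. At 8 h it read 9.32 and 9.19 against 9.54 and 9.34 and was not called. The untreated call was lost with median centring and without untreated TAp73+/+ array 1 or 2 or TAp73-/- array 1. Of the clamp loader, Rfc5 was lower untreated (-0.47 ± 0.10, adjusted p = 0.00369) and at 8 h (-0.37 ± 0.10, adjusted p = 0.0128), and Rfc3 lower at 4 h (-0.38 ± 0.12, adjusted p = 0.0297). The 8 h call of Rfc5 was lost in 5 of 21 alternatives, among them the mean of its 3 probes, and the Rfc3 call in 3. Rfc1, Rfc2 and Rfc4 were not called.

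The RPA subunits diverged here as well. Rpa1 was higher in TAp73-/- cells at 4 h (0.40 ± 0.10, adjusted p = 0.011) and 8 h (0.32 ± 0.10, adjusted p = 0.0315), with 13.23 to 13.52 on those 4 arrays against 12.85 to 13.18. Rpa3 was lower at the same times (-0.43 ± 0.14, adjusted p = 0.0365, and -0.52 ± 0.14, adjusted p = 0.0156), at 10.86 to 11.27 against 11.35 to 11.60. Rpa2 was lower at 8 h (-0.52 ± 0.16, adjusted p = 0.0235). Each of these calls was lost with the covariate and without 1 or more single arrays, and that of Rpa2 also with the mean of its probes. At 8 h 1 dimmer Rpa2 probe was lower too, at 7.17 and 7.3 in TAp73-/- against 7.6 and 7.77 in TAp73+/+ cells. The other was not, at 8.47 and 8.9 against 8.24 and 8.52. Fen1 was lower at 8 h (-0.32 ± 0.09, adjusted p = 0.0211), lost without any 1 of the 4 arrays, and Lig1 was not called.

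**Figure D4:**
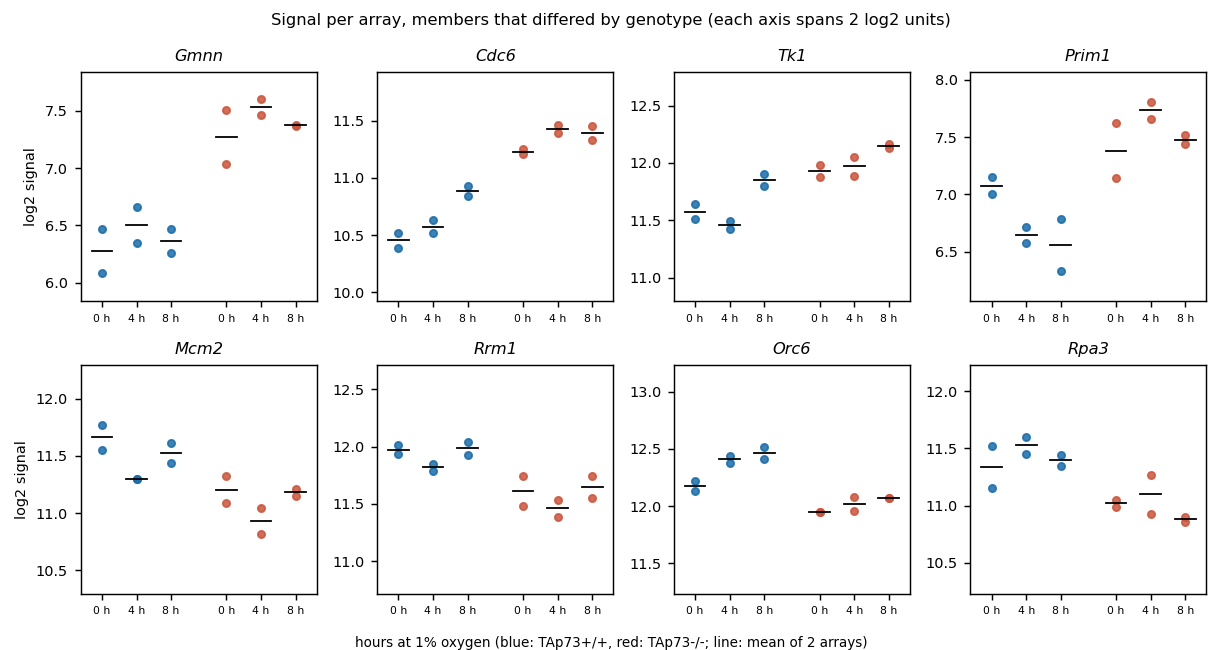
Normalised log2 signal (y axis, 2 units in every panel) on each array by hours at 1% oxygen (x axis) for 8 members called between genotypes, with TAp73+/+ in blue, TAp73-/- in red and the mean of 2 arrays as a line. The 6 TAp73-/- arrays of Gmnn and Cdc6 lie above all 6 TAp73+/+ arrays, and those of Rrm1 and Orc6 lie below all 6.

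Tk1 and Rrm1, of the salvage and the reduction of nucleotides, differed in opposite directions. Tk1 was higher in TAp73-/- cells at all 3 times, by 0.36 ± 0.10 (adjusted p = 0.0168), 0.51 ± 0.10 (adjusted p = 0.00299) and 0.30 ± 0.10 (adjusted p = 0.0388), with 11.88 to 12.17 on the 6 TAp73-/- arrays against 11.42 to 11.90 and no overlap at any 1 time. The 4 h call was kept without each single array, and the others were not. A dimmer Tk1 probe read 8.65 to 9.26 in TAp73+/+ and 8.98 to 9.36 in TAp73-/- cells, higher in TAp73-/- cells at each time by group mean. Rrm1 was lower at all 3 times (-0.37 ± 0.12, adjusted p = 0.0288, then -0.36 ± 0.12, adjusted p = 0.0328, then -0.34 ± 0.12, adjusted p = 0.0416), at 11.39 to 11.74 against 11.79 to 12.04. Each Rrm1 call was lost without at least 1 single array. A probe of Rrm1 of nearly the same brightness read 11.72 and 11.62 against 11.67 and 11.65 untreated, where the genotypes overlapped, 11.60 and 11.65 against 11.40 and 11.30 at 4 h, and 11.92 and 11.90 against 11.57 and 11.65 at 8 h. With the mean of its 3 probes Rrm1 was called lower at all 3 times (-0.38 ± 0.09, -0.37 ± 0.09 and -0.47 ± 0.09, adjusted p = 0.00642, 0.00787 and 0.00217). Tyms was higher untreated (0.74 ± 0.17, adjusted p = 0.00699, -0.56 with the covariate), and Dut and Rrm2 were lower at 8 h (-0.46 ± 0.10, adjusted p = 0.00509, and -0.32 ± 0.11, adjusted p = 0.0491), with the opposite sign in the mean over probes (0.089 and 0.019). Chaf1a and Chaf1b were not called between genotypes, and Uhrf1 was higher at 4 h (0.37 ± 0.12, adjusted p = 0.0347).

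Other genes of the same pathway were counted in the same way. Between genotypes their calls leaned the other way from those of the members untreated and at 4 h. Of 36 tested genes with further roles in replication, 2 were higher and 6 lower at 4 h and 7 higher and 0 lower at 8 h in TAp73+/+ cells. Of the 36, 0 were higher and 1 lower at 4 h, and 2 higher and 1 lower at 8 h in TAp73-/- cells. The shares called were 22.2% and 19.4% in TAp73+/+ and 2.78% and 8.33% in TAp73-/- cells, beside 28%, 23.9%, 6.96% and 20.9% of all genes. At 8 h in TAp73+/+ cells the largest rises were those of Ticrr and Cdc7, which fire origins, and of Pclaf, a PCNA partner (0.69 ± 0.18, adjusted p = 0.0196, 0.62 ± 0.13, adjusted p = 0.0064, and 0.58 ± 0.11, adjusted p = 0.00392). The polymerase delta subunits Pold4 and Pold3 rose at 8 h in TAp73-/- cells (0.76 ± 0.15, adjusted p = 0.00588, and 0.56 ± 0.10, adjusted p = 0.00324), and the histone chaperone Asf1a fell at 4 h in both genotypes (-0.58 ± 0.15, adjusted p = 0.0142, and -0.71 ± 0.15, adjusted p = 0.0186). Between genotypes more of these genes were lower than higher in TAp73-/- cells, with 7 against 2 untreated, 8 against 3 at 4 h and 9 against 1 at 8 h. The shares called were 25%, 30.6% and 27.8%, beside 38.4%, 36.5% and 36.3% of all genes. Topbp1, a scaffold for origin firing and checkpoint signalling, was lower at each time (-0.95 ± 0.13, -0.61 ± 0.13 and -0.63 ± 0.13, adjusted p = 0.000248, 0.00428 and 0.00339). Samhd1, which breaks down nucleotides, was higher untreated and at 4 h (0.72 ± 0.10 and 0.70 ± 0.10, adjusted p = 0.000336 and 0.000445).

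Of the mitosis genes, more fell than rose under hypoxia. Of 22 tested, 2 rose and 8 fell at 4 h and 1 rose and 13 fell at 8 h in TAp73+/+ cells (medians -0.18 and -0.46). These are 45.5% and 63.6% called, beside 28% and 23.9% of all genes, of which 12% rose and 16% fell at 4 h and 11.6% and 12.3% at 8 h. In the other genotype 0 rose, with 2 and 8 falling (medians -0.13 and -0.28), or 9.09% and 36.4% called beside 6.96% and 20.9% of all genes. At 8 h Cenpf, a kinetochore protein, fell in TAp73+/+ cells (-1.16 ± 0.13, adjusted p = 0.000173), as did Cdc20, the activator of the anaphase-promoting complex (-1.11 ± 0.10, adjusted p = 3.86e-05). Plk1, the mitotic kinase, fell in TAp73-/- cells (-0.81 ± 0.10, adjusted p = 0.000344). Of 10 tested hypoxia-inducible genes, 8 rose at each time in TAp73+/+ and 9 in TAp73-/- cells, and 0 fell, with Adm at 2.74 ± 0.18 (adjusted p = 4.68e-06) at 4 h in TAp73+/+ cells.

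Probes of 1 gene often gave different answers. Of the 47 tested members, 27 have 1 probe past the filter and 20 have several, with 38 probes beside the brightest ones. At 4 h in TAp73+/+ cells 14 of these 38 had the sign of the brightest probe of the gene, and at 8 h 24 did. The counts were 23 and 28 in TAp73-/- cells. Rfc2, a clamp loader subunit, is a case where all 4 probes were higher at 8 h than untreated in both genotypes. Its brightest probe differed by 0.28 ± 0.11 and 0.30 ± 0.11 and was not called (adjusted p = 0.093 and 0.0761), while the mean over probes was called in both (0.52 ± 0.09, adjusted p = 0.00249, and 0.41 ± 0.09, adjusted p = 0.00947). Mcm4 is the opposite case: its brightest probe read 13.40 and 13.35 untreated and 13.09 and 13.11 at 4 h in TAp73+/+ cells, and a dim probe read 4.59 and 5.15, then 6.15 and 6.07.

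**Figure D5:**
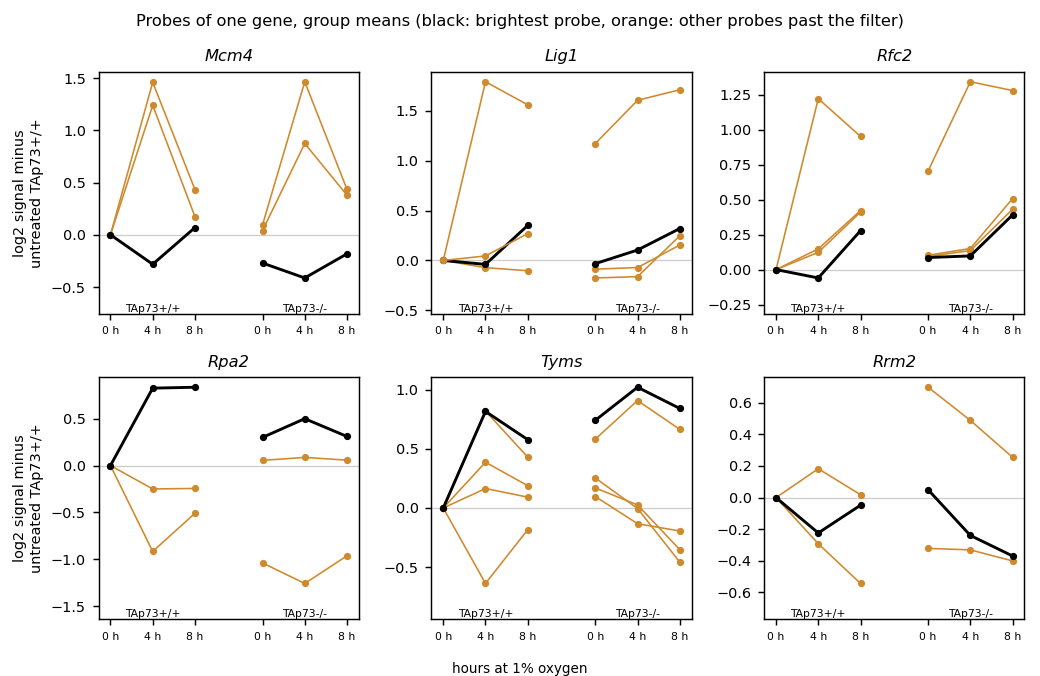
Group means of log2 signal relative to untreated TAp73+/+ cells (y axis) by hours at 1% oxygen (x axis) for every probe past the filter of 6 members, the brightest in black and others in orange. The dim Mcm4 probes rise at 4 h in both genotypes while the brightest does not, the Rfc2 probes all end higher at 8 h, and the Rpa2 probes separate.

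Levels on the array spanned means of 5.45 to 13.3 among the tested members, but they are not compared between genes here, since each probe has its own response. In all, 15 members (31.9%, against 26.9% of all genes) were called in none of the 11 comparisons: Mcm5, Mcm7, Mcm10, Orc5, Gins1, Gins3, Gins4, Prim2, Pold1, Pole, Rfc1, Rfc2, Rfc4, Lig1 and Chaf1b. With the mean of the probes, Mcm7, Prim2, Rfc2 and Lig1 of these 15 were called in at least 1 comparison. Gins3 was called in that fit too, but 1 probe reads it, so its values were the same and the call does not come from further probes. By the brightest probe 32 members were called in at least 1 comparison (68.1%, against 73.1% of all genes), 18 in at least 1 of hypoxia against untreated (38.3%, against 46.2%) and 29 in at least 1 between genotypes (61.7%, against 58.3%). The arrays of the compared groups did not overlap for any called member in these comparisons, a background that was high over all genes. It was 66.9% and 62.8% of all genes at 4 and 8 h in TAp73+/+ cells, 50.9% and 64.4% in TAp73-/- cells, 66.3% and 56.8% between 4 and 8 h in the same order, and 68.6%, 70.2% and 73.7% between genotypes.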

How the data were processed

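RNA was hybridised to mouse bead arrays, 12 in all. Per the file headers, the deposited raw table gives 45281 probes, each with its scanner intensity and detection p-value. The deposited series matrix holds processed intensity signals, attributed to Partek in the submitters' processing notes. Background correction from the detection p-values (offset 16), quantile normalisation and log2 used neqc of limma 3.58.1 in R 4.3.3. Kept were 21223 probes for which both arrays of some group had a detection p below 0.05, and the brightest named probe stood for each gene. One mean per group was fitted over the 12 arrays with limma and empirical Bayes moderation (10.8 degrees of freedom), with Benjamini-Hochberg adjustment within each of 11 contrasts. The fitting procedure was tested on simulated data. The labels do not say that replicates are separate cultures, so p-values measure the spread between arrays. They name no slide or scan, so no such block was run. Members, lists and tests were chosen with earlier results of these data known. Named with a value for each array are the called members with the largest change, up to 2 per role and contrast, and those called for a difference in response. Members named beyond this, to describe a role in full, were chosen with their values seen. Genes that are no members come from the other replication, mitosis and hypoxia lists, up to 3 called per list and contrast. One probe per gene was named from the platform annotation, updated to GRCm38.p6. The number of arrays limits the precision.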

Additional observations from a re-analysis of the deposited data

How the results depend on the processing

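Counts of called members were recomputed with the deposited series matrix, without background correction, with median centring, without or with a stricter detection filter, with the mean of the probes of a gene, with an intensity trend, with the probe score as a covariate, with a replicate block and without each array. All values are members called, of 47. Without single arrays they ranged, in TAp73+/+ cells, from 6 to 15 (4 h), 6 to 14 (8 h) and 0 to 11 (8 against 4 h). In TAp73-/- cells they ranged from 1 to 3, 2 to 8 and 0 to 5. Between genotypes they ranged from 7 to 15 untreated, 7 to 15 (4 h) and 5 to 19 (8 h), and for the genotype difference in response from 0 to 2 (4 h) and 0 to 0 (8 h). With the probe score as a covariate the counts in TAp73+/+ cells were 0 (from 11), 2 (from 11) and 0 (from 8), those in TAp73-/- cells 0 (from 2) and 0 (from 3) at 4 h and for 8 against 4 h, and those between genotypes 0 (from 13), 4 (from 15) and 0 (from 18). For 8 against 4 h in TAp73+/+ cells, median centring gave 1, no background correction 13 and the intensity trend 14. For 8 against 4 h in TAp73-/- cells, these gave 1, 5 and 5, and the mean of the probes 5. At 4 h in TAp73-/- cells the series matrix, no background correction and the trend each gave 4, and at 8 h each gave 10. For the difference in response at 4 h each gave 1. With the series matrix the split was 5 higher and 10 lower at 4 h in TAp73+/+ cells and 7 and 3 at 8 h in TAp73-/- cells. The cause of these shifts was not tested.

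Of 87 called values of single members, 10 kept their call with the covariate, 57 with median centring and 67 with the mean of the probes. Signs turned with the covariate for Mcm3 (-0.098), Rfc3 (-0.27), Tyms (-0.43) and Uhrf1 (0.12) at 4 h in TAp73+/+ cells, and between genotypes for Mcm2 (0.065), Mcm3 (-0.70) and Tyms (-0.56) untreated and Mcm2 at 8 h (0.0047). None of these turned values was called in that fit (limma adjusted p of 0.456 to 0.994), so no reversal is read from them. With the mean of the probes, signs turned for Rpa2 at 4 h (-0.11) and Mcm4 from 4 to 8 h (-0.58) in TAp73+/+ cells, and between genotypes for Dut (0.089) and Rrm2 (0.019) at 8 h.

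Replicate numbers did not pair the arrays: same-numbered deviations correlated at -0.250 to 0.125 over 15 pairs of groups, with 2 above 0.1. With the replicate block the counts were 10, 9 and 7 in TAp73+/+ cells at 4 h, at 8 h and for 8 against 4 h, 2, 7 and 3 in TAp73-/- cells, 11, 15 and 13 between genotypes untreated, at 4 h and at 8 h, and 0 for both differences in response, and 75 of the 87 calls were kept. Where an array was left out, the lone array of its group was assumed to vary like the other groups.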

Other observations

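Dim probes of genes that also have a bright probe peaked at 4 h more often than they dipped. This was noticed and counted after the data were seen, over all genes with several probes past the filter. A probe passes that filter if both arrays of any 1 group detect it. A probe near background can therefore enter through the 4 h group in which it peaks. The counts are a description, and what the filter adds to them was not tested. Of 2106 probes lying more than 3 log2 units below the brightest probe of the same gene, 295 (14%) read higher at 4 h than untreated and at 8 h in both genotypes, with no overlap of arrays, and 106 (5.03%) read lower. Of 2262 probes within 1 unit of the brightest, 152 (6.72%) peaked and 119 (5.26%) dipped. Among the replication genes 5 of 16 probes more than 3 units below the brightest peaked (31.2%), for Mcm4, Cdc6, Rfc5 and Uhrf1, and 0 dipped. A dim Uhrf1 probe read 4.39 and 4.37 untreated, 4.75 and 4.95 after 4 h and 4.70 and 4.62 after 8 h in TAp73+/+ cells, and 4.86 and 5.06, 5.46 and 5.75, and 4.91 and 4.52 in TAp73-/- cells. Most of its TAp73+/+ readings lie within or below 4.41 to 4.86, the range of the Trp73 probe on TAp73+/+ arrays, where that probe was not detected.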
